A study of Mus musculus with 12 samples.

Results

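The 39 genes described here belong to families of enzymes that methylate lysine or arginine residues of histones. Eed and Suz12, the core partners of Ezh1 and Ezh2, are included. Some genes are placed here by family only, such as Kmt2e and Prmt3, described below. They were taken by gene symbol from the deposited table of read counts, where all 39 were present among 49216 genes with counts. RNA came from sorted germ cells of C57Bl mice that express tdTomato in germ cells. The 4 groups, each of 3 libraries from independent experiments, were pachytene and diplotene (PD) cells cultured 48 hours with 24 mM oxamate, PD cells cultured 48 hours untreated, leptotene and zygotene (LZ) cells cultured 6 days with 0.3 mM octyl-L2HG, and LZ cells cultured 6 days untreated. Oxamate inhibits lactate dehydrogenase, and octyl-L2HG is a cell-permeable form of L-2-hydroxyglutarate (2HG); the series text states that oxamate lowers 2HG of PD cells to the LZ level. All groups carry the tdTomato reporter, and the labels do not give the driver of the reporter, the age of the animals or how many were pooled. The 3 libraries of each group are called A, B and C by a code that the 4 groups share in the table, and p-values measure the spread between these libraries.

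Histone methyltransferases take the methyl group from S-adenosylmethionine, and most lysine enzymes carry a SET domain, with Dot1l as the exception. Methylation of histone H3 at lysine 4 or lysine 36 is found over active genes, whereas methylation at H3 lysine 9, H3 lysine 27 and H4 lysine 20 marks silenced or compacted chromatin. In male meiosis H3 lysine 4 methylation by Prdm9 marks recombination sites, H3 lysine 9 methylation is needed for synapsis, and the sex chromosomes are silenced in pachytene cells. 2HG inhibits enzymes that use 2-oxoglutarate, among them histone demethylases of the Jumonji family, which remove these marks.

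Oxamate libraries held 19107780 to 21115131 counts each, untreated PD libraries 15202579 to 21275486, octyl-L2HG libraries 11271410 to 18432143 and untreated LZ libraries 10532504 to 15903788. Summed counts of 10 pachytene and diplotene markers made up 1.43% to 1.46% of untreated PD counts and 0.115% to 0.166% of untreated LZ counts, with 9 of 10 markers higher in PD. For 10 early meiotic markers the sum was 0.0484% to 0.0722% of untreated PD counts and 0.323% to 0.445% of untreated LZ counts, and 8 were lower in PD. Markers of other cells also moved with the stage. Round spermatid markers made up 0.134% to 0.158% of untreated PD counts and 0.000938% to 0.00203% of untreated LZ counts, where Acrv1 was at 0. Sertoli cell markers made up 0.000416% to 0.000559% of untreated PD counts, where Wt1, Gata4 and Rhox5 were at 0, and 0.0347% to 0.0389% of untreated LZ counts. Ctsl held most of that LZ sum, with 5468, 3874 and 3586 counts in untreated LZ libraries A, B and C. Of the 5 Sertoli cell markers tested, 4 were lower in PD and 1, Inha, was higher. The part of these other cells in the stage results was not tested. Stage cannot be told apart from culture time or sort, and in bulk RNA fewer cells of a type cannot be told apart from less RNA per cell.

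The 39 genes together held 0.344% ± 0.012 of counts with oxamate and 0.338% ± 0.012 in untreated PD cells, against 0.849% ± 0.028 with octyl-L2HG and 0.797% ± 0.027 in untreated LZ cells (SD, n = 3 each). Per kilobase of annotated exon, the order of the genes was rearranged between the stages. This scale compares levels of different genes only roughly. It uses all annotated exons of a gene merged, and the length of the transcripts present was not measured. In untreated PD cells Ehmt2 and Dot1l stood at the top, with 1483 ± 97.8 and 1477 ± 38.1 normalized counts per kb, a gap within their spread, followed by Prmt7 with 472 ± 32.9. In untreated LZ cells Suz12 led with 1532 ± 126 normalized counts per kb, followed by Kmt2b with 904 ± 79.9, Setd2 with 698 ± 56.3, Suv39h1 with 674 ± 90.8 and Dot1l with 653 ± 38.8, of which the last 3 did not differ beyond their spread. Suz12 ranked 13 in untreated PD cells, Suv39h1 ranked 30 in untreated PD cells and 4 in untreated LZ cells, and Ehmt2 ranked 1 in untreated PD cells and 13 in untreated LZ cells. Setd7, Prmt3, Kmt2a, Ehmt1 and Prmt2 were the 5 lowest in untreated PD cells, between 0.915 and 2.95 normalized counts per kb. Smyd3, Smyd2, Setd7 and Setd1b were the 4 lowest in untreated LZ cells, between 6.84 and 11.8 normalized counts per kb.

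**Figure D1:**
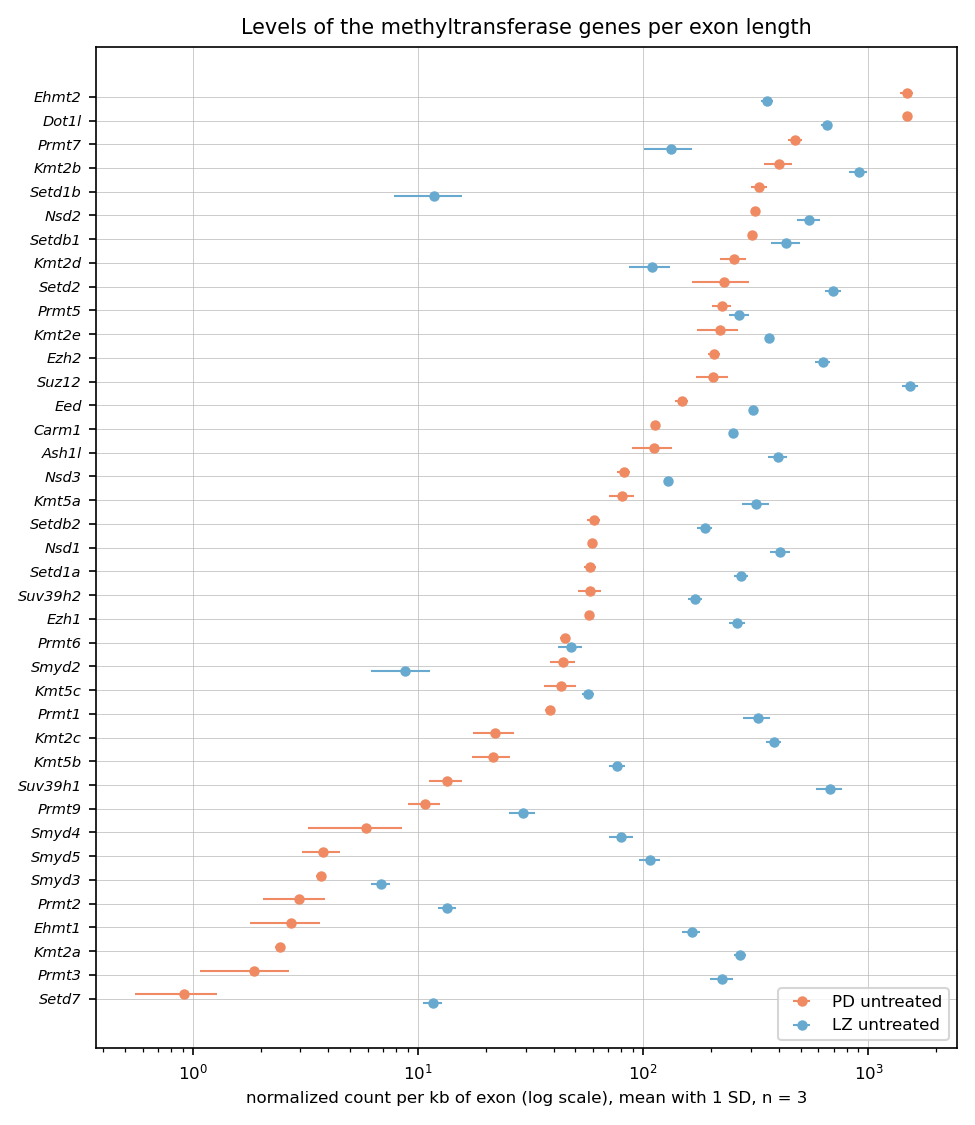
Mean normalized counts per kilobase of exon (log axis) of the 39 genes in untreated PD (orange) and untreated LZ cells (blue), with bars of 1 SD over 3 libraries, ordered by the PD level. Most genes have the PD point left of the LZ point, while Ehmt2, Dot1l, Prmt7, Setd1b, Kmt2d and Smyd2 have it to the right.

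The stage comparison asks how untreated PD cells differ from untreated LZ cells, and most of these genes fell. Of the 39, 32 were lower and 6 were higher in untreated PD than in untreated LZ cells at a limma adjusted p under 0.05, while 38.9% of all tested genes were lower and 50.8% higher. Their median log2 fold change was -1.61, against 0.49 over all genes tested. Fold changes are on the scale of log2(normalized count + 1), where a normalized count is a count scaled for library size and composition, and they understate changes of low genes. The 6 that rose were Setd1b, Smyd2, Ehmt2, Prmt7, Kmt2d and Dot1l, each from a different enzyme class except Setd1b and Kmt2d. With total-count scaling the median of all genes was -0.08 and the genome-wide calls were 7477 higher and 7804 lower, against 8579 higher and 6574 lower here. No called gene of the 39 changed direction under that scaling.

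Among enzymes of H3 lysine 4, 2 rose and 5 fell. Setd1b, a catalytic subunit of the COMPASS complexes, had 3643, 4284 and 3945 normalized counts in untreated PD libraries A, B and C and 196, 108 and 122 in untreated LZ libraries. Its paralog Setd1a fell, with 395 ± 25.7 normalized counts in untreated PD cells and 1855 ± 130 in untreated LZ cells. The pair therefore moved in opposite directions, with log2 fold changes of 4.84 ± 0.17 (SE) for Setd1b and -2.23 ± 0.09 for Setd1a. Of the 6795 bp of Setd1a exon, 3523 bp are shared with the gene Gm49388 on the same strand, so its value is uncertain. Kmt2a, the founding mixed-lineage leukemia enzyme, had 38.4, 42.3 and 40.7 normalized counts in untreated PD libraries and 4728, 4218 and 4527 in untreated LZ libraries, a 108-fold lower level. The enhancer enzymes Kmt2c and Kmt2d also moved in opposite directions, with Kmt2c 17.4-fold lower and Kmt2d 2.34-fold higher. Kmt2b was 2.27-fold lower and Kmt2e, a family member without established catalytic activity, 1.67-fold lower in PD.

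All 5 enzymes of H3 lysine 36 fell. Nsd1, which dimethylates this residue, was 6.82-fold lower in untreated PD cells, whereas its paralogs Nsd2 and Nsd3 were 1.73-fold and 1.58-fold lower. Setd2, the enzyme of the trimethylated state, had 2464 ± 690 normalized counts in untreated PD cells and 7510 ± 606 in untreated LZ cells. Ash1l, a Trithorax-group enzyme, was lower, at -1.85 on the log2 scale.

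Among enzymes of H3 lysine 9, 1 rose and 5 fell. Ehmt1 (GLP) and Ehmt2 (G9a) act as a heterodimer that makes mono- and dimethylated lysine 9, and they moved in opposite directions. Ehmt2 had 8638, 8205 and 7570.5 normalized counts in untreated PD libraries A, B and C and 2080.4, 1943 and 1826 in untreated LZ libraries. Ehmt1 had 19.8, 16.0 and 30.5 in untreated PD libraries and 1471, 1297 and 1227 in untreated LZ libraries. The log2 fold changes were 2.06 ± 0.09 for Ehmt2 and -5.89 ± 0.28 for Ehmt1 (SE). Suv39h1, which trimethylates lysine 9 in pericentromeric heterochromatin and is the X-linked gene among the 39, had 83.9, 65.2 and 62.7 normalized counts in untreated PD libraries and 4044, 3527 and 3089 in untreated LZ libraries, 49.8-fold lower. Its autosomal paralog Suv39h2, which is known in mouse for its expression in testis, was 2.93-fold lower. Setdb1, which acts with Trim28 at retroelements, was 1.42-fold lower, and its relative Setdb2 3.10-fold lower.

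All 4 core genes of Polycomb repressive complex 2, which methylates H3 lysine 27, fell. Suz12, the scaffold, was 7.55-fold lower in untreated PD cells, and Eed, which reads the mark, 2.06-fold lower. The catalytic subunits Ezh1 and Ezh2 were 4.50-fold and 3.05-fold lower. Dot1l, the enzyme of H3 lysine 79, rose, with 12860 ± 332 normalized counts in untreated PD cells and 5687 ± 338 in untreated LZ cells. Of the H4 lysine 20 enzymes, Kmt5a, which adds the first methyl group, was 3.93-fold lower and Kmt5b, which adds further ones, 3.59-fold lower. Kmt5c was 1.33-fold lower, and its adjusted p of 0.0251 became 0.0777 without untreated LZ library C.

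In the SMYD family with Setd7, 1 gene rose and 4 fell. Smyd2, a lysine methyltransferase of histone and other proteins, had 106, 117 and 136 normalized counts in untreated PD libraries and 15.6, 28.2 and 27.5 in untreated LZ libraries. Smyd5, Smyd4 and Setd7 were 27.3-fold, 14.0-fold and 12.2-fold lower and Smyd3 1.81-fold lower.

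Of 8 arginine methyltransferases, 1 rose, 6 fell and 1 was not called. Prmt3, which methylates a ribosomal protein, showed the largest fall of the 39, with 15.1, 12.6 and 5.93 normalized counts in untreated PD libraries and 1177, 1483 and 1361 in untreated LZ libraries. Its log2 fold change was -6.86 ± 0.24 (SE). Prmt1, the main enzyme of asymmetric dimethylarginine, was 8.24-fold lower. Prmt7, which makes monomethylarginine, had 2891 ± 201 normalized counts in untreated PD cells and 812 ± 194 in untreated LZ cells. Carm1, a coactivator enzyme that methylates histone H3, was 2.21-fold lower, Prmt2 4.35-fold and Prmt9 2.70-fold. Prmt5, the main enzyme of symmetric dimethylarginine, was lower in PD cells, at -0.26 ± 0.10 on the log2 scale (SE), with overlapping groups (limma adjusted p = 0.0256), and the call was lost without untreated LZ library A (adjusted p = 0.0597) or B (0.101). Prmt6 stood at -0.08 ± 0.14 (log2 fold change ± SE; adjusted p = 0.566) and was called lower, at -0.56, only with total-count scaling.

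**Figure D2:**
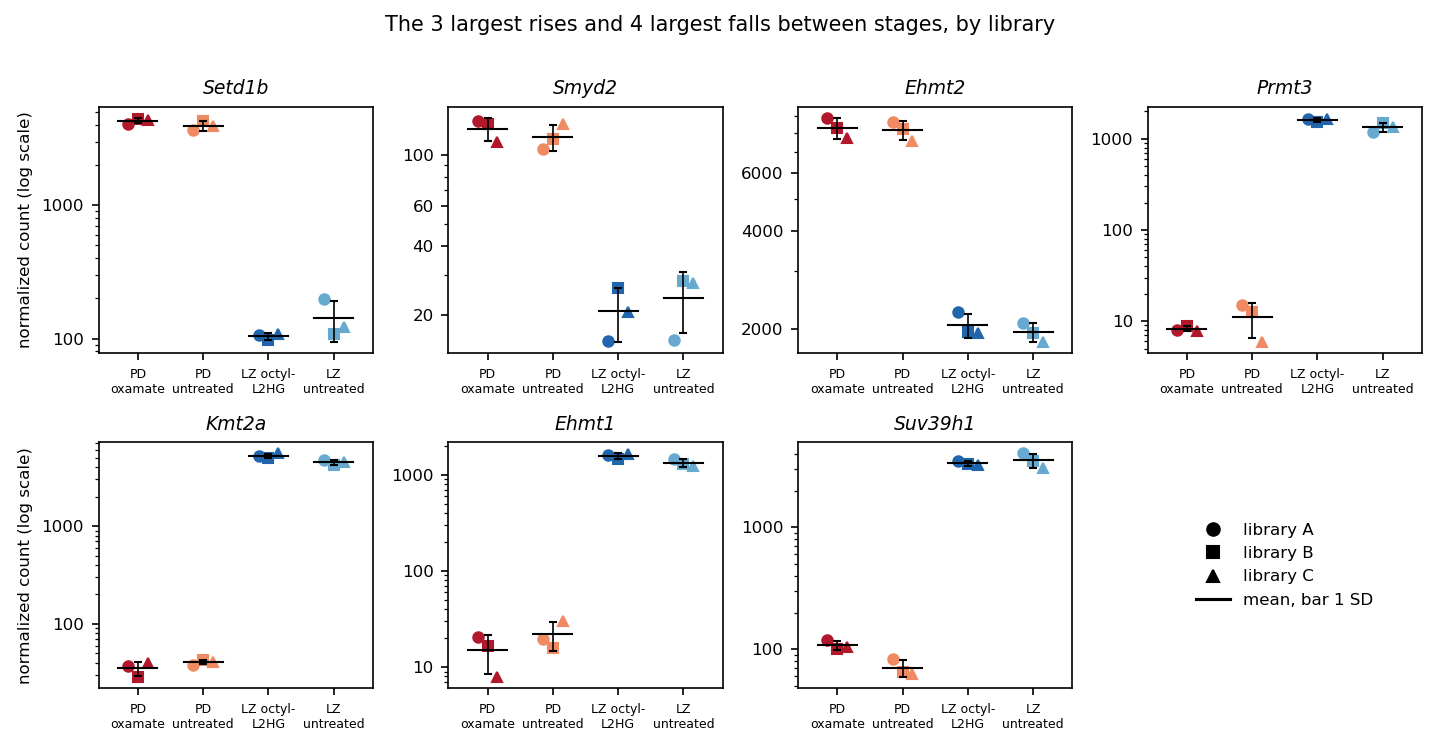
Normalized counts (log axes) in each library for the genes with the 3 largest rises and the 4 largest falls between stages, with group means and bars of 1 SD. For every gene shown the PD libraries lie apart from the LZ libraries, with Ehmt2 above and Ehmt1 below.

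In PD cells, oxamate was accompanied by higher transcript levels of 7 of these genes and by lower levels of none at the threshold. Kmt5a, Suv39h1, Setdb2, Carm1, Ezh2, Prmt5 and Ezh1 rose by 1.28-fold to 1.64-fold. Of the 37 genes tested, 18.9% were higher, where 6.13% of all tested genes were higher and 1.65% lower, and the median log2 fold change was 0.12, against 0.03 over all genes tested. With no adjustment, 14 (37.8%) were higher and 3 (8.11%) lower at p under 0.05, against 14.7% and 6.35% of all tested genes. With voom weights 7 were higher and 0 lower, with Setdb1 called in place of Suv39h1. The fit reported does not pair the PD libraries. With the library code as a replicate block, 8 were higher, Setdb1 being added, and 0 lower. In that fit 1230 of 15233 tested genes were higher and 309 lower. Setd7 and Prmt3, with means under 10 normalized counts over the PD libraries, were not tested. Setd7 had 4.49, 2.96 and 1.97 normalized counts in PD libraries A, B and C with oxamate and 5.82, 10.3 and 13.6 in untreated PD libraries, so that the groups did not overlap. Without the filter Setd7 was called lower, at -1.37 ± 0.31 on the log2 scale (SE; limma adjusted p = 0.0169), and Prmt3 was not called, which gave 6 genes higher and 1 lower. All 7 that rose with oxamate were lower in untreated PD than in untreated LZ cells. Both comparisons use the untreated PD libraries, so these directions are not independent of each other.

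The comparison with other genes of the same stage direction and within the same range of abundance gave a narrower gap. Among genes lower in untreated PD cells and with a PD abundance between percentiles 10 and 90 of the 39 genes, 7 of 25 of these genes (28%) were higher with oxamate, against 16.1% of 3961 other genes, and 0 were lower, against 1.79%. Their median log2 fold change was 0.11, below the 0.16 of those other genes. Among genes higher in PD cells, 0 of 3 were called, against 1.89% higher and 1.49% lower of 7052 other genes. Among genes lower in PD cells, those of the 39 thus had a larger share of higher calls and a lower median. Only the direction of the stage change was matched, not its size. The abundance range was wide, from 4.80 to 12.1 on the log2 scale, and the gap was not tested.

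Kmt5a, the enzyme that monomethylates H4 lysine 20 and is known for its role in chromosome condensation, had 673, 722 and 710.4 normalized counts in PD libraries A, B and C with oxamate and 412, 488 and 385 in untreated PD libraries. Every oxamate library lay above every untreated one, and the fold change was 0.72 ± 0.11 on the log2 scale (SE; limma adjusted p = 0.00229). The other H4 lysine 20 enzymes were not called, Kmt5c at 0.38 ± 0.16 (adjusted p = 0.189) and Kmt5b at -0.10 ± 0.15.

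Of the H3 lysine 9 enzymes, Suv39h1 and Setdb2 rose. Suv39h1 had 118, 101 and 104 normalized counts with oxamate and 83.9, 65.2 and 62.7 in untreated PD libraries. Its log2 fold change of 0.61 ± 0.13 (SE; limma adjusted p = 0.0110) left it far below the LZ libraries, and the call was lost with voom weights (adjusted p = 0.0818). Setdb2 had 353, 372 and 365 normalized counts with oxamate and 255, 253 and 225 in untreated PD libraries, which is 0.57 ± 0.09 on the log2 scale (adjusted p = 0.00277). Setdb1 lay just outside the threshold, at 0.31 ± 0.09 (adjusted p = 0.0551), and passed it in 7 of the 9 alternatives that keep all libraries, with adjusted p of 0.0177 to 0.0498, among them the library code as a replicate block (0.0479). It also passed in 4 of the 6 fits that left out a PD library (0.0214 to 0.0487). Ehmt1, at -0.57 ± 0.28 (adjusted p = 0.275), and Ehmt2, at 0.02 ± 0.09, were not called.

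Both catalytic subunits of Polycomb repressive complex 2 rose. Ezh2 had 1844, 1842 and 1935 normalized counts with oxamate and 1279, 1413 and 1437 in untreated PD libraries, and its log2 fold change was 0.45 ± 0.08 (SE; limma adjusted p = 0.00480). Ezh1 had 544, 551 and 555 with oxamate and 433, 437 and 415 in untreated PD libraries, at 0.36 ± 0.08 (adjusted p = 0.0165). For both genes the groups did not overlap. Of the 37 genes tested, 14 (37.8%) lay above without overlap and 2 (5.41%) below, against 20.7% and 13.7% of all tested genes. Eed was at 0.18 ± 0.08 (adjusted p = 0.226) and Suz12 at -0.01 ± 0.14 (adjusted p = 0.980), neither called.

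Of the arginine methyltransferases, Carm1 and Prmt5 rose. Carm1 had 795, 742 and 864 normalized counts with oxamate and 545, 542 and 561 in untreated PD libraries, or 0.54 ± 0.08 on the log2 scale (SE; limma adjusted p = 0.00174), the lowest adjusted p of the 39. Exons of Carm1 overlap Yipf2 on the opposite strand, those of Suv39h1 overlap Gm14820 and those of Ezh2 overlap Gm26625, and the strand setting of the counting is not given in the sources used here. Prmt5 had 1197, 1137 and 1114 with oxamate and 837, 979.9 and 833 in untreated PD libraries, at 0.38 ± 0.10 (adjusted p = 0.0336). The Prmt5 call was lost with total-count scaling (adjusted p = 0.0614), with median-of-ratios scaling (0.0517) and without the filter (0.0574). It was also lost without untreated PD library A (0.0934) or C (0.0939) and without oxamate library A (0.0962) or B (0.0648).

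None of the H3 lysine 4 or lysine 36 enzymes or the SMYD genes was called with oxamate. Log2 fold changes ran from -0.26 to 0.25 in the H3 lysine 4 enzymes and from -0.20 to 0.23 in the H3 lysine 36 enzymes. Kmt2b, at -0.26 ± 0.10 (SE; limma adjusted p = 0.167), was called lower with total-count scaling (0.0379), with median-of-ratios scaling (0.0386) and without untreated PD library A (0.0207). Nsd3 was at -0.19 ± 0.08 (adjusted p = 0.166) and was called lower with total-count scaling (0.0316). Nsd1, at 0.23 ± 0.10 (adjusted p = 0.182), was called higher without oxamate library A (0.0468). In the authors' deposited table the same 7 genes are higher, with Setdb1 as an eighth, and Kmt2b, Nsd3 and Setd7 are lower. Of 27034 genes with a value there, 1139 are higher and 537 lower with oxamate.

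The libraries of the PD groups varied together for several of these genes. In 12 genes library A was the lowest in both PD groups, among them 8 of the 12 genes with over 10 kb of exon and 4 of the other 27. One of those 4 was Suz12, with 4945 bp of exon. The share of all genes with this pattern was not computed. Deviations of library A also correlated between the PD groups over all genes, at 0.357. For Setd2, PD library A held 0.531 of the level of library C with oxamate and 0.565 of it without treatment. Ash1l, Kmt2c, Kmt2e and Suz12 had ratios of 0.572 to 0.681 with oxamate and of 0.653 to 0.729 in untreated PD libraries. For these genes the spread between libraries was wide and the intervals of the oxamate change included 0. The fit reported has no term for the library, so variation shared by the PD groups counts there as spread. With the library code as a replicate block, these genes were still not called with oxamate. The source of the shared variation was not tested.

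None of the tested marker genes of germ cell stages or of other cells was called with oxamate, while some of their sums differed. Summed pachytene and diplotene markers were 1.31% to 1.41% of counts with oxamate and 1.43% to 1.46% in untreated PD libraries, but 7 of the 10 had positive log2 fold changes, with a median of 0.03. Hspa2 and Adam3, 2 of the 10, were lower without overlap of the groups, as were 13.7% of all tested genes. Hspa2 had 41678 ± 1854 normalized counts with oxamate and 46952 ± 1022 in untreated PD cells. Summed round spermatid markers were 0.104% to 0.130% with oxamate and 0.134% to 0.158% in untreated PD libraries, with a median log2 fold change of -0.22. Of these 10 markers, 4 (40%) were lower without overlap, against the same 13.7%, and 0 were higher without overlap. The 4 were Prm1, Prm2, Tnp1 and Tnp2, while 3 other markers had positive log2 fold changes. Mean normalized counts with oxamate and in untreated PD cells were 678 and 1143 for Prm1 and 989.9 and 1618 for Prm2. They were 1077 and 1519 for Tnp1 and 1499 and 2612 for Tnp2. Spermatogonia markers were 0.00666% to 0.00744% with oxamate and 0.00605% to 0.00649% in untreated PD libraries. Id4 held most of this sum, with 1167 ± 68.5 normalized counts with oxamate and 942 ± 25.5 in untreated PD cells. Of the 4 spermatogonia markers tested, 2 had positive and 2 had negative log2 fold changes, with a median of -0.09. Leydig cell markers were 0.000175% to 0.000256% with oxamate and 0.00029% to 0.000385% in untreated PD libraries, and peritubular and stromal markers 0.00046% to 0.000535% with oxamate and 0.000574% to 0.000724% in untreated PD libraries. The groups did not overlap for these 5 sums, and the part of these cells in the changes above was not tested.

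**Figure D3:**
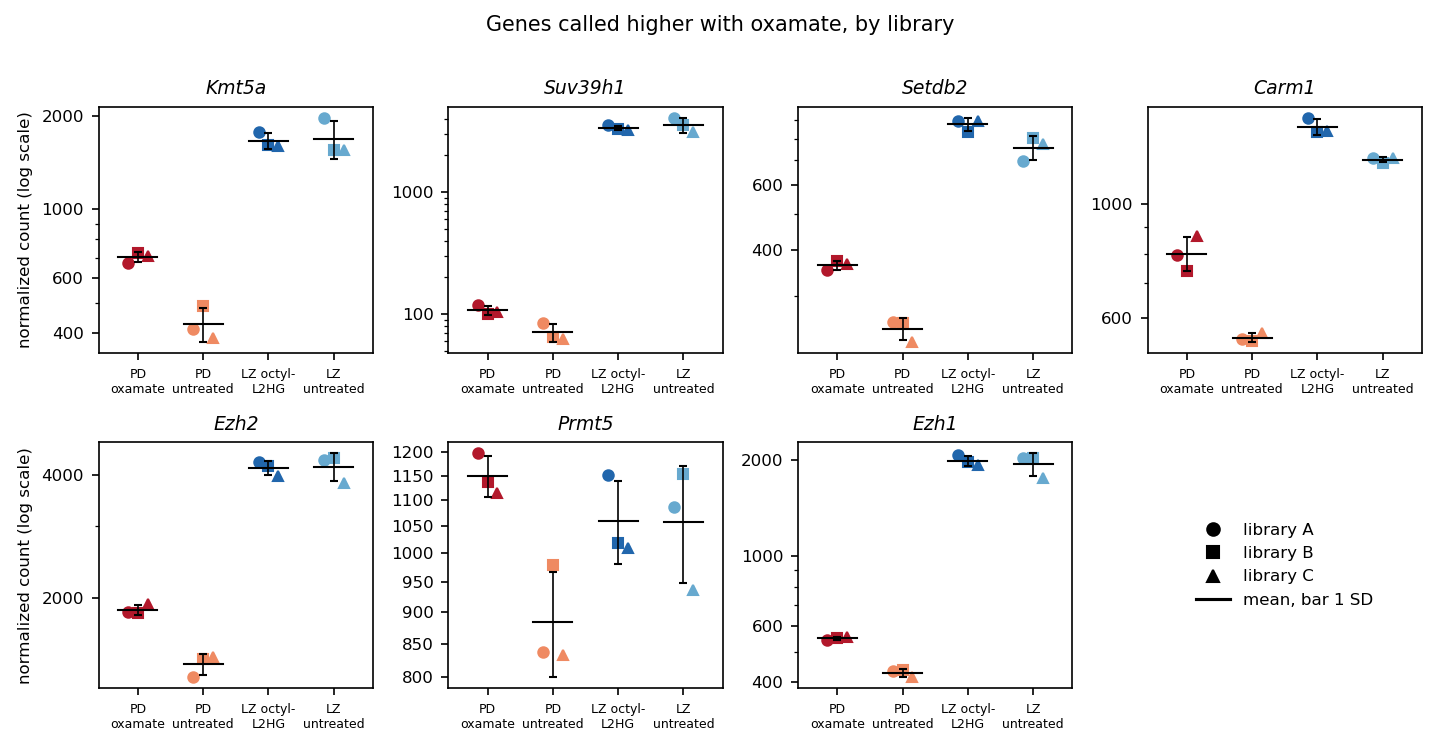
Normalized counts (log axes) in each library for the 7 genes called higher with oxamate, with group means and bars of 1 SD. In each panel the 3 oxamate libraries lie above the 3 untreated PD libraries, and for all but Prmt5 they stay below the LZ libraries.

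Promoter sequences are shown for the genes that rose together with oxamate, to let their proximal sequence be compared. RefSeq entries on GRCm38.p6 matched 30 of the 39 genes, including 6 of these 7, and not Carm1. Each line gives the 250 bases before the RefSeq start, 5′ to 3′ along the gene's own strand, and capitals mark CCAAT boxes, which nuclear factor Y binds, read on both strands (CCAAT or ATTGG).
Kmt5a (chr5:124439680-124439929, plus strand): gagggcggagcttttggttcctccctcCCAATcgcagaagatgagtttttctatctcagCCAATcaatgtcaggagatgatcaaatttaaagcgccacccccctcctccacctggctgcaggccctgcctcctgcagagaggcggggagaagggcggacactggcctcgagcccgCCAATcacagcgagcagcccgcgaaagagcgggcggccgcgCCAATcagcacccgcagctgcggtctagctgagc
Suv39h1 (chrX:8074761-8075010, minus strand): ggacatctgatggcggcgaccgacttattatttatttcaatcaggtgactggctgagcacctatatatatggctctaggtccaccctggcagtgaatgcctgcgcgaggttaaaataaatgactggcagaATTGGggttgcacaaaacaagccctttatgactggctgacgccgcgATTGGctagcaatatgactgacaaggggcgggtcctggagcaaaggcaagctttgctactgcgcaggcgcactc
Setdb2 (chr14:59440881-59441130, minus strand): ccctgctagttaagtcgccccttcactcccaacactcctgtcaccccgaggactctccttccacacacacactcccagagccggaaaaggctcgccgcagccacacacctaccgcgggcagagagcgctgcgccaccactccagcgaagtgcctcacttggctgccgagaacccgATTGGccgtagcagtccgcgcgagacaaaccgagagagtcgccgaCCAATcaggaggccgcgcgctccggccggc
Ezh2 (chr6:47595031-47595280, minus strand): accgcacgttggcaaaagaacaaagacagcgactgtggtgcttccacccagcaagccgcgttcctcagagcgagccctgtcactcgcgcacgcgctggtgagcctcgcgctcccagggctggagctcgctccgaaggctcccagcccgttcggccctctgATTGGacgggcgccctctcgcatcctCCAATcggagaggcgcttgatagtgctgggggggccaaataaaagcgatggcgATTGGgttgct
Prmt5 (chr14:54517471-54517720, minus strand): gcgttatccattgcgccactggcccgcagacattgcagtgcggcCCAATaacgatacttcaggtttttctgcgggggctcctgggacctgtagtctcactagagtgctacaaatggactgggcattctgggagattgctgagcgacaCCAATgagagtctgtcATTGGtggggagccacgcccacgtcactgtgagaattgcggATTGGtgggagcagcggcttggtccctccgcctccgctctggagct
Ezh1 (chr11:101226464-101226713, minus strand): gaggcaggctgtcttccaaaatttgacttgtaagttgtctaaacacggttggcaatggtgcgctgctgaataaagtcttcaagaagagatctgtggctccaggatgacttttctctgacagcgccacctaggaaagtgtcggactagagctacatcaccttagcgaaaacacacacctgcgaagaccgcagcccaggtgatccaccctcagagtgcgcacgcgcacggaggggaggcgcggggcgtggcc
The RefSeq start lies 311 bases inside the annotated gene for Ezh2, 55 for Prmt5 and 4 for Setdb2, so the Ezh2 stretch is wholly within the gene as GENCODE gives it. Kmt5a and Prmt5 hold 4 matches each, Ezh2 holds 3, Setdb2 and Suv39h1 hold 2 each, and Ezh1 holds none. A match was thus present in 5 of the 6, in 8 of the 24 other genes with an entry, and in 33.8% of all 32851 promoters in the table. The 4 motifs searched were chosen with the results known, so these shares are a description. An E2F core (TTTNNCGC) was in 2 of 30 entries, against 4.28% of all promoters, and a MYB core (AACNG) in 20 of 30, against 74.2%. An ATF4 element (TGATGNAA) was in 0 of 30, against 3.45%. All were read on both strands, and matches of different motifs overlapped in 0 of the 30 entries.

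In LZ cells, octyl-L2HG changed none of the 39 genes at the threshold. Of all tested genes, 0.276% were called higher and 0.0307% lower. With no adjustment, p was under 0.05 for 6 of the 39 (15.4%) in the higher and 2 (5.13%) in the lower direction, against 10.1% and 2.85% of all tested genes, and voom weights also called 0. The median log2 fold change was 0.16, against 0.06 over all genes tested. The lowest adjusted p belonged to Dot1l, with 6624 ± 334 normalized counts with octyl-L2HG and 5687 ± 338 in untreated LZ cells, at 0.22 ± 0.07 (SE; limma adjusted p = 0.197).

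The 7 genes that rose with oxamate differed in how they stood under octyl-L2HG. Kmt5a had 1777, 1605 and 1598 normalized counts in LZ libraries with octyl-L2HG and 1963, 1549 and 1552 in untreated LZ libraries, with overlapping groups. Suv39h1 had 3534, 3298 and 3251 with octyl-L2HG and 4044, 3527 and 3089 in untreated LZ libraries. Ezh2 had 4316, 4222 and 3986 with octyl-L2HG and 4363, 4419 and 3828 in untreated LZ libraries. The log2 fold changes of these 3 genes lay between -0.07 and -0.01. Ezh1 had 2064, 1966 and 1925 with octyl-L2HG and 2027, 2030.0 and 1756 in untreated LZ libraries. Prmt5 had 1152, 1019 and 1009.8 with octyl-L2HG and 1088, 1152 and 936 in untreated LZ libraries. These groups overlapped too, at log2 fold changes of 0.04 ± 0.08 for Ezh1 and 0.00 ± 0.10 for Prmt5 (SE). Setdb2 had 896, 838 and 899 with octyl-L2HG and 696, 804 and 776 in untreated LZ libraries. Carm1 had 1465, 1380.0 and 1383 with octyl-L2HG and 1228, 1200.4 and 1225 in untreated LZ libraries. Setdb2 and Carm1 thus did not overlap between the groups, both at a log2 fold change of 0.21, with adjusted p of 0.355 and 0.279. Of the 39 genes, 14 (35.9%) lay above without overlap and 1 (2.56%) below, against 15.1% and 4.03% of all tested genes.

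Among the other genes, Prmt2 and Setd1b had the largest negative values under octyl-L2HG. Prmt2 had 22.9 ± 4.44 normalized counts with octyl-L2HG and 45.5 ± 4.28 in untreated LZ cells, or -0.98 ± 0.35 on the log2 scale (SE; limma adjusted p = 0.259). Setd1b was at -0.40 ± 0.17 (adjusted p = 0.325), with untreated LZ library A higher than B and C. In the authors' deposited table none of the 39 is called under octyl-L2HG. Of 27034 genes with a value there, 78 are higher and 56 lower.

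**Figure D4:**
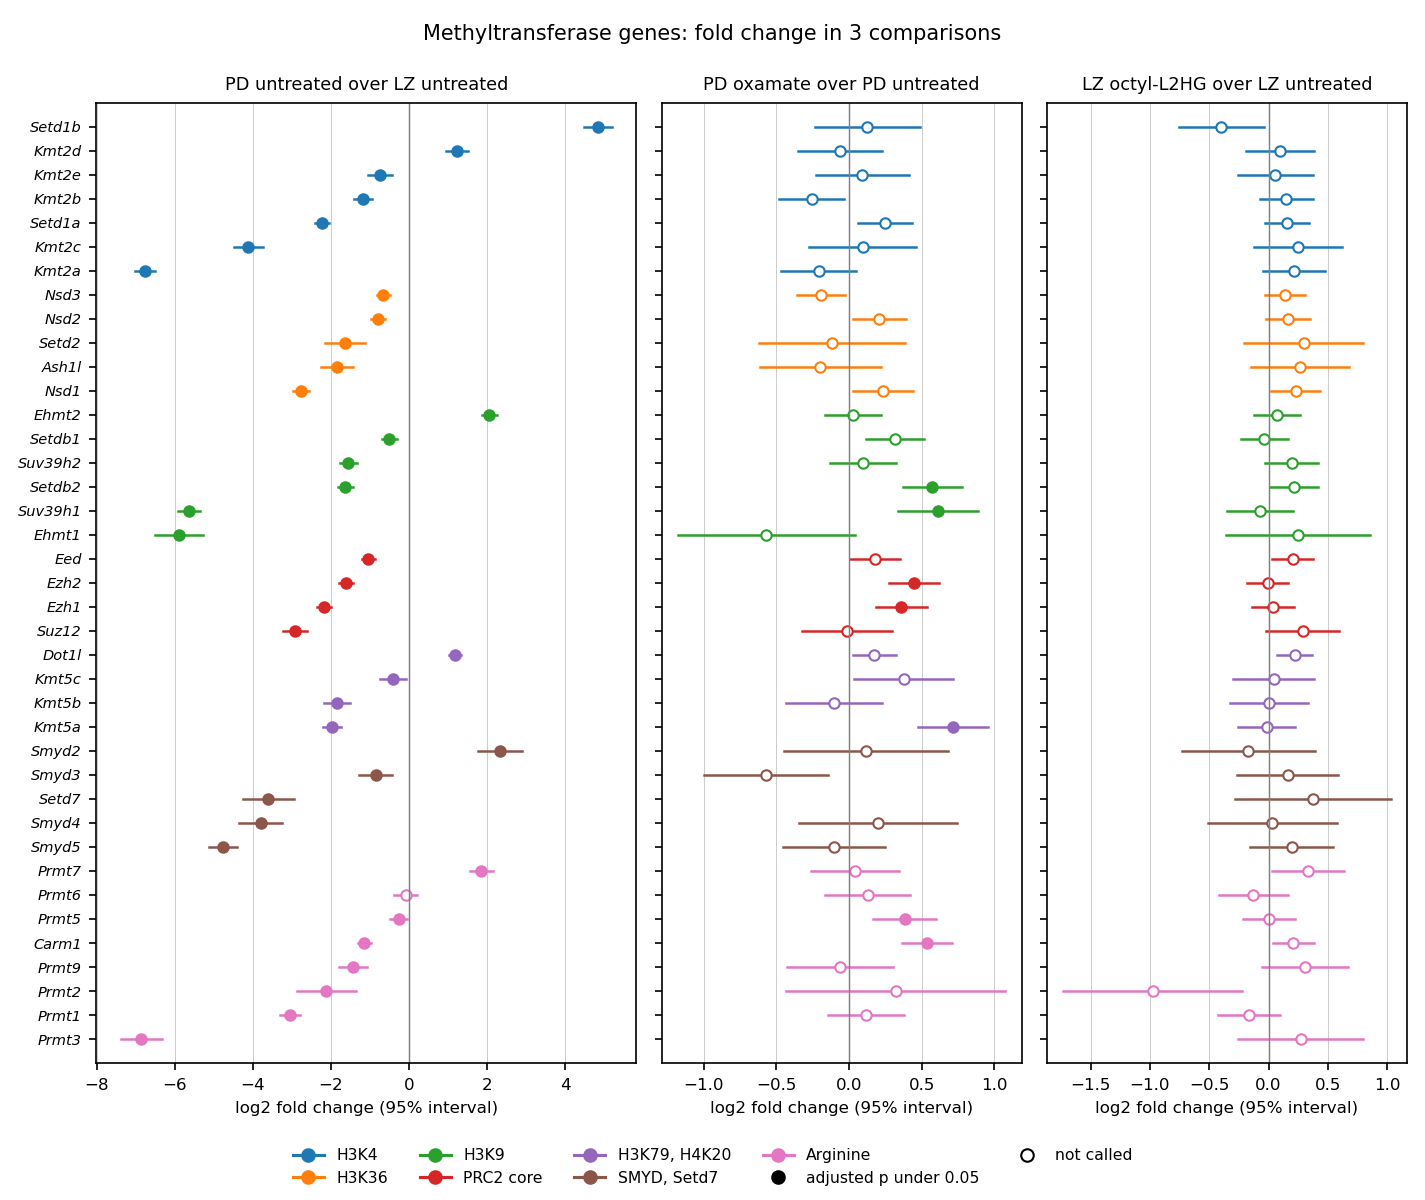
Log2 fold changes with 95% intervals of the 39 genes by enzyme class, for untreated PD over untreated LZ cells, oxamate over untreated PD cells, and octyl-L2HG over untreated LZ cells (the panels have different scales). Filled points passed an adjusted p of 0.05, with 38 in the first panel, 7 in the second and 0 in the third.

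The oxamate change in PD cells was then set against the octyl-L2HG change in LZ cells in 1 test of their difference. Kmt5a was called, with the oxamate change higher by 0.73 ± 0.16 (SE; limma adjusted p = 0.0431), while 0.693% of all tested genes were called higher and 0.515% lower. Leaving out untreated LZ library A gave an adjusted p of 0.0615, leaving out C gave 0.0554, and leaving out octyl-L2HG library A, B or C gave 0.0682, 0.114 or 0.106. Without the filter it was 0.0777. Ezh2, at 0.45 ± 0.11 (adjusted p = 0.0672), and Suv39h1, at 0.68 ± 0.18 (adjusted p = 0.0792), were not called in the fit reported. Ezh2 was called with total-count scaling (0.0332), with median-of-ratios scaling (0.0401) and in each of the 6 fits that left out a PD library (0.0303 to 0.0458). Suv39h1 was called with total-count scaling (0.0415), with the replicate block (0.0214) and without untreated PD library A (0.0140) or oxamate library B (0.0489) or C (0.0382). Setdb1 was called without untreated PD library C (0.0492) or oxamate library C (0.0413). Carm1 was at 0.33 ± 0.11 (adjusted p = 0.161), so a difference between the treatments was not shown for it. The treatments also differ in stage, culture time, compound and dose, which cannot be told apart here.

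Partner proteins, other methyltransferases, methyl-group supply and demethylases were followed as 4 further lists. Of 28 tested partner subunits of these enzymes, 9 rose and 16 fell in untreated PD cells. Beside them, 50.8% of all tested genes were higher and 38.9% lower. The largest falls were of Rbbp7, a histone chaperone of several chromatin complexes, 236-fold lower, Hcfc1, a partner of the Setd1 and Kmt2 complexes, 62.1-fold lower, and Phf19, a Polycomb accessory protein, 16.6-fold lower. The largest rises were of Phf1, another Polycomb accessory protein, 11.2-fold, Mllt3, which binds Dot1l, 7.83-fold, and Ash2l, a core COMPASS subunit, 5.88-fold. With oxamate 6 of 27 partner subunits (22.2%) rose and 1 (3.7%) fell, beside the 6.13% and 1.65% of all tested genes. Among the other genes lower in PD cells and in the abundance range given above, 16.1% were higher. Hcfc1 had 207 ± 16.8 normalized counts with oxamate and 111 ± 1.29 in untreated PD cells (limma adjusted p = 3.1e-04), and Wdr5, the shared core of the same complexes, 858 ± 16.4 with oxamate and 523 ± 32.8 in untreated PD cells (adjusted p = 7.6e-04). Mllt1, a relative of Mllt3, rose 1.51-fold (adjusted p = 0.00873), and Mllt3 was the one that fell, with 54.3 ± 13.5 normalized counts with oxamate and 100.3 ± 4.40 in untreated PD cells (adjusted p = 0.0483). Wdr5 and Hcfc1 were also called in the test of the difference between the treatments, at 0.66 (adjusted p = 0.0251) and 0.78 (adjusted p = 0.0168).

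Of 8 tested other SET-domain and arginine methyltransferase genes, 3 rose and 5 fell in untreated PD cells. The shares of all tested genes were again 50.8% higher and 38.9% lower. Prdm9 had 7.38 ± 2.69 normalized counts in untreated PD cells and 535 ± 44.9 in untreated LZ cells, and Smyd1 313 ± 23.1 in untreated PD cells and 10.5 ± 2.51 in untreated LZ cells. With oxamate 1 of 7 (14.3%) was called higher, beside 6.13% of all tested genes. It was Setd3, an actin histidine methyltransferase, higher by 0.29 on the log2 scale (limma adjusted p = 0.0361). Of 10 tested genes of methyl-group supply, 2 rose and 7 fell between the stages, beside 50.8% and 38.9% of all tested genes. Among the 7 was Mat2a, which makes S-adenosylmethionine, 6.86-fold lower. With oxamate 1 of 9 (11.1%) was called, Ahcyl2, 1.32-fold higher (adjusted p = 0.0368), beside the same 6.13% of all tested genes.

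Of 22 histone lysine demethylases, 4 rose and 15 fell in untreated PD cells, beside 50.8% and 38.9% of all tested genes. Kdm6a, an H3 lysine 27 demethylase encoded on the X chromosome, had 9.02 ± 3.86 normalized counts in untreated PD cells and 1986 ± 35.0 in untreated LZ cells, whereas Kdm4d, an H3 lysine 9 demethylase, had 5096 ± 366 in untreated PD cells and 226 ± 32.9 in untreated LZ cells. With oxamate 6 of 22 (27.3%) rose and 2 (9.09%) fell, beside the same 6.13% and 1.65% of all tested genes. In the abundance range given above, 16.1% of other genes lower in PD cells were higher with oxamate and 1.79% lower. Of other genes higher in PD cells, 1.89% were higher and 1.49% lower. The largest rise was of Kdm6b, another H3 lysine 27 demethylase, with 391 ± 26.7 normalized counts with oxamate and 226 ± 25 in untreated PD cells (limma adjusted p = 0.00173). Kdm4a and Kdm3a, H3 lysine 9 demethylases, rose 1.39-fold and 1.33-fold, and Kdm8 and Kdm4b were 1.56-fold and 1.32-fold lower. Enzymes that write and that erase methylation at H3 lysine 27 thus both had members that rose with oxamate, Ezh1 and Ezh2 on one side and Kdm6b on the other. With octyl-L2HG 0 genes of these 4 lists were called, and 15 of 67 (22.4%) had an unadjusted p under 0.05, all higher, where all tested genes at that threshold also lay more often on the higher side (10.1% against 2.85%).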

How the data were processed

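Per the labels' protocols, 12 libraries were made from poly-A RNA of cultured mouse germ cells with a stranded kit. Tools named in the submitters' processing notes are TopHat2 2.1.1 (aligner), HTSeq 0.6.0 (counter), cutadapt 1.18, bcl2fastq 2.18.0.12 and DESeq2 1.22.2, with the GRCm38 build. Not given in the sources used here are the authors' model, how strand was treated in counting, and which annotation release was taken. The deposited table holds 55471 genes, of which 6255, none protein-coding, show a question mark instead of counts; the remaining 49216 hold whole counts. The authors' 12 columns of normalized values were not used, and the log2 fold changes and adjusted p-values of the authors' deposited table were only set beside the results.

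A count test had been planned. The question marks make the columns fail the unit rule for counts, so limma was used, as planned for that case. Counts were scaled in R 4.3.3 by TMM (trimmed mean of M values, coded for this purpose), then taken to log2 after adding a pseudocount of 1, so changes of low genes come out too small. limma 3.58.1 (trend, robust) fitted the 4 group means over 12 libraries without a block, on 17011 genes with a mean of at least 10. The same minimum applied within the libraries compared, and in both stages for the difference of the treatment changes. P-values were two-sided and Benjamini-Hochberg adjusted over all genes tested in a comparison, with 0.05 as the threshold; every adjusted p in the text is limma's. The scripts were tested on simulated data.

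Libraries carry a code shared by the groups but not the labelled replicate number. Deviations from the group means correlated between oxamate and untreated PD libraries of the same code, at 0.357, 0.229 and 0.292. All were above 0.1, so the code was taken to pair them. The fit reported leaves this pairing out, and the replicate block among the alternatives uses it. For octyl-L2HG and untreated LZ libraries the values were 0.048, 0.145 and 0.065, and for untreated PD and LZ libraries 0.033, 0.035 and 0.104. No 2 libraries of a group held identical counts.

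All 39 genes matched GENCODE M21 by start and end. Exons of 21 overlap another annotated gene, 4 of them on the same strand, and their values are uncertain to that extent. Exon lengths are merged GENCODE M21 exons, and promoters come from RefSeq.

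The members, lists, tests and motifs were chosen with earlier results of these data known. Values per library were given for genes called under a treatment and for the 3 largest rises and falls between stages, and at most 3 called genes per list and direction were named from the other lists; 1 result among them is not reported here. Alternatives were other scalings, filters and pseudocounts, voom weights, only the groups compared, a replicate block, and leaving out each library. Counts per gene rest on 10532504 to 21275486 counts per library.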

Additional observations from a re-analysis of the deposited data

Results flagged for a closer look

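Kmt5a was called when the changes under oxamate and octyl-L2HG were tested against each other. The oxamate change in PD cells exceeded the octyl-L2HG change in LZ cells by 0.7335 on the log2 scale (limma adjusted p = 0.0431). All 3 oxamate libraries lay above all 3 untreated PD libraries, whereas the octyl-L2HG and untreated LZ libraries overlapped. The call was lost without untreated LZ library A or C, without octyl-L2HG library A, B or C, and without the filter on low counts, with adjusted p of 0.0554 to 0.114. Ezh2 and Suv39h1, not called in the fit reported, were called with total-count scaling (adjusted p = 0.0332 and 0.0415), and Ezh2 with median-of-ratios scaling (0.0401). Stage, culture time and compound differ between the treatments and cannot be told apart.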

How the results depend on the processing

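Of 39 genes in the stage comparison, 36 to 39 were called under the alternatives (38 in the fit reported), and no called gene changed direction. Leaving out 1 library gave 37 to 38. With oxamate 6 to 9 of the 39 were called, and leaving out 1 library gave 6 to 8, with at least 6 of the 7 genes kept in each. With octyl-L2HG every alternative gave 0. For the difference between the oxamate and octyl-L2HG changes, with 1 gene called, total-count scaling gave 3, median-of-ratios scaling 2, no filter 0 and the replicate block 2, and leaving out 1 library gave 0 to 4; the cause was not tested. Signs of genes that were never called changed for up to 7 genes in a setting. With the replicate block the counts were 38 for the stage, 8 for oxamate (Setdb1 added) and 0 for octyl-L2HG, and beside Setdb1 with oxamate and Suv39h1 in the difference it changed no call. For octyl-L2HG and for the stages the library code pairs the libraries weakly, so the block there rests on a shared code only.

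The median log2 fold change of all genes between stages, 0.49 here, was -0.08 with total-count scaling, 0.43 with median-of-ratios scaling and 0.30 with only the groups compared, and Prmt6 was called lower with total-count scaling alone. Where leaving out a library left 2 in a group, the spread was pooled over all groups. Genes below about 10 normalized counts, such as Setd7 and Prmt3 in PD cells, are at the limit of this depth.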
